A study of Mus musculus with 6 samples.

Results

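The genes described here are 43 mouse genes of the unfolded protein response and of protein folding in the endoplasmic reticulum (ER). They were chosen from a list of ER stress sensors, chaperones and genes of ER-associated degradation (ERAD), and all 43 were found among the 21883 protein-coding genes examined. CUT&RUN, in which an antibody on chromatin of permeabilised cells guides a nuclease to release the bound DNA for sequencing, was done in MIN6, an insulinoma line from mice that expressed SV40 T antigen in beta cells. The 3 groups, with 2 libraries each, differ in the antibody: against endogenous MafA, a beta cell transcription factor, against H3K4me3 (the positive control) or plain IgG (the negative control). Each library came from 500k cells in 0.01% digitonin. All groups share this 1 cell line, and the labels name no ER stressor or other treatment of the cells.

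When unfolded proteins accumulate in the ER, the sensors IRE1 (encoded by Ern1), PERK (Eif2ak3) and ATF6 start a response that slows translation and raises chaperones, disulfide-forming enzymes and the degradation of misfolded proteins. Beta cells depend on it because they fold large amounts of proinsulin, which needs disulfide bonds. ATF6 and XBP1, the factor made after IRE1 splices its RNA, act through the ER stress element, a CCAAT box and a CCACG box separated by a fixed gap, while ATF4 acts downstream of PERK. H3K4me3 marks the starts of active genes.

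Promoter windows show how these genes are built and where MafA summits fell in them. Each window runs from 250 bases before to 50 bases after the gene start and comes from RefSeq on GRCm38.p6, 5′ to 3′ along the gene, with the start at base 251. The first 3 windows below have ER stress elements in capitals, 1 from a gene without a MafA peak (Hspa5) and 2 from genes with a MafA region at the start. The Ppp1r15a window has in capitals an ATF/CRE site (TGACGTCA) that overlaps a MAF core (TGCTGAC, on the other strand). The Sec61b window has in capitals the 21 bases centred on the MafA summit, which lay at base 83 in both replicates.
Hspa5, plus strand of chr2:34771840-34772139: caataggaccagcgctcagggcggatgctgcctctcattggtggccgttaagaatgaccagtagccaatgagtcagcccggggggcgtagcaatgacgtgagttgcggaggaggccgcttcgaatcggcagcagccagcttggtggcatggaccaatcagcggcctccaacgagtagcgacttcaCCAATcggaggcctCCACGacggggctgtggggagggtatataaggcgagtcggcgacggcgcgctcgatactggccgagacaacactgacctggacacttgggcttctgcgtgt
Hsp90b1, minus strand of chr10:86705395-86705694: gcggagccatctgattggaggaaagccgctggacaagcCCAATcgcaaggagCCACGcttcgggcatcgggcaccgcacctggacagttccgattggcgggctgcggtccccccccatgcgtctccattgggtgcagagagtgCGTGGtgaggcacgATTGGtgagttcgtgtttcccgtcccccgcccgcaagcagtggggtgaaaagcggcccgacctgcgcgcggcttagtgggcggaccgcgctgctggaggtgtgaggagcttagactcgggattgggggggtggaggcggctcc
Herpud1, plus strand of chr8:94386179-94386478: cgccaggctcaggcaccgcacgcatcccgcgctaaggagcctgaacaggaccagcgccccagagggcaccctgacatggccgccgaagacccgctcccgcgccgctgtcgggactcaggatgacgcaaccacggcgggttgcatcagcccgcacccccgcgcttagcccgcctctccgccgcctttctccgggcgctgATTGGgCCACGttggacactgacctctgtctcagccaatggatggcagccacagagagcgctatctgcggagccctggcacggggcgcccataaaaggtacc
Ppp1r15a, minus strand of chr7:45526219-45526518: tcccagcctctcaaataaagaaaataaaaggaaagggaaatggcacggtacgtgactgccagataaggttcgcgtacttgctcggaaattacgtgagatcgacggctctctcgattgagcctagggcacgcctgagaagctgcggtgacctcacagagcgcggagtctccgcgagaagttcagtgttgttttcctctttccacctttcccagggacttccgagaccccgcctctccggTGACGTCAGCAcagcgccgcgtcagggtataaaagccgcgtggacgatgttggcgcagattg
Sec61b, plus strand of chr4:47474411-47474710: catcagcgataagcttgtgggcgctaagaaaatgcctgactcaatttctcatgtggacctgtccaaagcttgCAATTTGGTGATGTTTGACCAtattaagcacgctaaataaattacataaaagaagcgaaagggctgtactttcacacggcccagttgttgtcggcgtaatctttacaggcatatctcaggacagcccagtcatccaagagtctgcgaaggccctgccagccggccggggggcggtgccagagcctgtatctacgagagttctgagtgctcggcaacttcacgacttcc

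The promoter table matched 36 of the 43 genes with 39 windows. It has no entry for Atf6, Ppp1r15b, Derl1, Manf, Hyou1, Sec61a1 and Creb3l1. The ER stress element, searched on both strands as CCAAT followed after 9 bases by CCACG, was in 10 of the 39 windows (25.6%), at Calr, Canx, Creld2, Derl3, Dnajc3, Ero1b, Hsp90b1, Hspa5, Pdia6 and Syvn1. It was in 39 of all 32851 windows (0.119%). Hsp90b1 had the element at 2 places. The second form, ATTGG followed after 1 base by CCACG, was at Herpud1 and Dnajb11 (5.13% of member windows, 0.0365% of all). Several of these genes are textbook carriers of the element, so the count describes the list and was not tested.

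The MAF core TGCTGAC was in 2 of 39 windows (5.13%), at Trib3 and Ppp1r15a, against 4.67% of all windows. Neither gene had a MafA region at its start. None of the 17 windows of genes with a MafA region at the start held that core, and the MAF palindrome (TGCTGA followed after 1 or 2 bases by TCAGCA) was in no member window and in 0.0122% of all. The UPR element TGACGTGG and the C/EBP-ATF composite TGATGNAAT were in no member window, against 0.676% and 0.965% of all, and TGACGTCA was in 2.56% against 1.79%. The windows are 300 bases long and most MafA regions lay outside them. The search therefore says nothing of sequence under most MafA summits. Member windows had a median GC content of 62.3%, against 52.7% for all windows.

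Depth and data quality were as follows. The H3K4me3 lists held 16020 and 16904 peaks and the MafA lists 33013 and 42747. No peak list was used for IgG. Read totals are not given in the lists, but whole fragment numbers at MafA summits could be recovered from the deposited values. At the MafA regions of the ER genes the median summit held 46 fragments in replicate 1 and 87 in replicate 2, so values of replicate 1 rest on fewer fragments. The line's label was checked with H3K4me3 at gene starts. It was found at 9 of 10 beta cell genes, all but Ins1, at 1 of 4 genes of other islet cells (Gcg), and at none of 4 acinar and 2 duct genes. MafA regions, in the gene or within 10 kb, lay at all 10 beta cell genes and 2 of 4 other islet genes. They also lay at 1 of 4 acinar genes and 1 of 2 duct genes. By the same rule 44.0% of all protein-coding genes had one.

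All 43 ER genes carried an H3K4me3 region found in both replicates within 1 kb of the gene start, against 57.0% of all protein-coding genes. For the 7 genes without a table entry either gene end was counted. Fold enrichment, the authors' ratio of the signal at a peak summit to the local background, had a median over the genes of 21.3 (means of 2 replicates, range 6.82 to 46.3), against 17.8 over all 12470 marked starts. The regions had a median width of 3.08 kb (range 1.01 to 15.3 kb), against 2.16 kb. Genes with the mark at the start are therefore given as a second background for MafA.

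**Figure D1:**
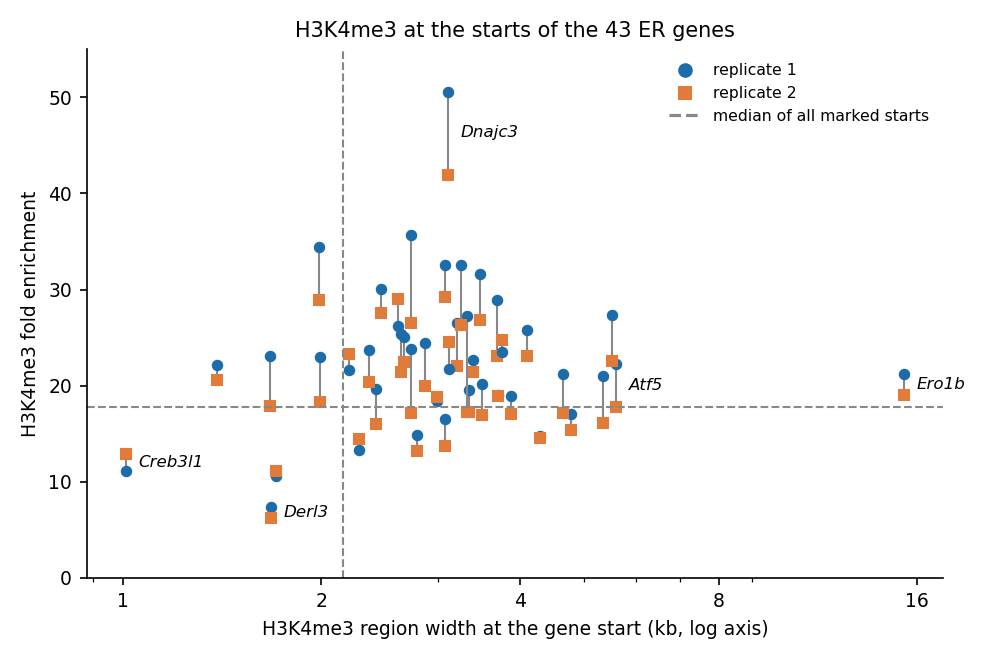
H3K4me3 at the starts of the 43 ER genes, with region width in kb (log axis) against fold enrichment in replicate 1 (circles) and replicate 2 (squares), joined by a line per gene. Dashed lines are the medians of all marked starts, 2.16 kb and 17.8. Ero1b stands apart by width (15.3 kb), Dnajc3 by fold enrichment (50.6 and 41.9), and Derl3 is lowest (7.37 and 6.27).

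Dnajc3, encoding the ER co-chaperone P58IPK, had the highest H3K4me3, with fold enrichment of 50.6 in replicate 1 and 41.9 in replicate 2. This region ranked 8 by mean fold enrichment among all 15573 H3K4me3 regions. The lowest was at Derl3, an ERAD channel component, with 7.37 and 6.27. The widest was at Ero1b, encoding an ER oxidase prominent in the pancreas that helps form disulfide bonds. Its region ran over 15.3 kb, from the start into the gene (chr13:12565272-12580530), and was the second widest of all 15573 (rank 2). It was called as 1 unbroken peak in each replicate, with fold enrichment of 21.2 and 19.0, so width and not height set it apart. In both replicates the values of Dnajc3 were above, and those of Derl3 below, the values of every other ER gene.

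MafA was found at 29 of the 43 genes (67.4%), counting a region in both replicates inside the gene or within 10 kb of it. The same rule called 44.0% of all protein-coding genes and 61.6% of the genes with H3K4me3 at the start. The share of ER genes is therefore near that of other marked genes, and no test of the difference was made. When each library was limited to its 16020 strongest peaks by fold enrichment, 11 genes had a region (25.6%), against 31.7% of marked genes. With 50% reciprocal overlap the shares were 51.2% and 53.0%. Under both settings the share of ER genes was below that of marked genes. It was above with a −log10 q of at least 5 (58.1% and 56.6%). The same held without MafA replicate 1 (83.7% and 80.3%) and without MafA replicate 2 (72.1% and 66.3%). A region within 1 kb of the start was present at 18 genes (41.9%), against 19.9% of all and 33.4% of marked genes. With the window set to 10 kb either side of each listed start, 28 genes had a region (65.1%), against 32.7% of all and 47.8% of marked genes. Both gene ends were searched for genes without a listed start, 7 of them ER genes, so this window was not equal for every gene. Hyou1 was counted there only through the end without H3K4me3, as its regions lay 17.1 and 18.4 kb from the marked end. The genes' median length was 12.9 kb, and that of marked genes 24.2 kb. Among marked genes under 10 kb long, 10 of 20 ER genes and 48.4% of all had a region. At 10 to 40 kb the numbers were 11 of 13 and 56.7%, and at 40 kb or longer 8 of 10 and 76.7%.

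**Figure D2:**
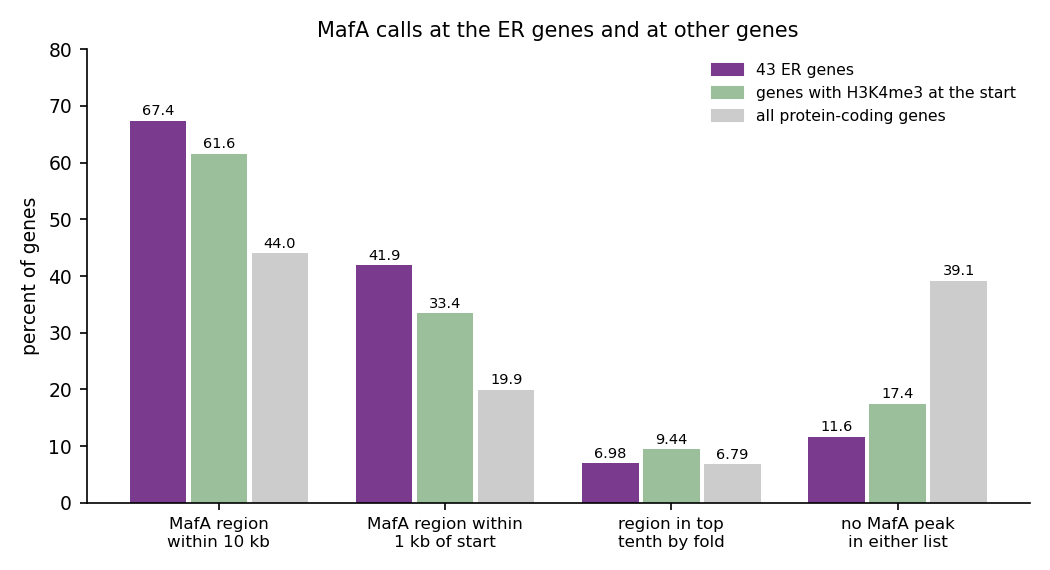
Percent of genes that meet each MafA call rule among the 43 ER genes, all genes with H3K4me3 at the start and all protein-coding genes (bars from 0, values above them). The ER genes are at 67.4% for a region within 10 kb, near the 61.6% of marked genes.

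The 29 genes carried 61 distinct MafA regions, and none lay near more than 1 of the 43 genes. Regions were split between 12 genes with 1 region, 11 with 2, 2 with 3 or 4 and 4 with 5. At least 5 regions were present at Atf6, Ern1, Eif2ak3 and Ero1b (9.30% of the ER genes), against 4.20% of all and 6.59% of marked genes. All 4 are over 40 kb long. A region at or above the 90th percentile of fold enrichment was present at 3 genes, Atf6, Eif2ak3 and Ero1b (6.98%), against 6.79% of all and 9.44% of marked genes. The strongest region per gene had a median fold enrichment of 5.71 over the 29 genes, against 6.14 over 7682 marked genes with a region. In 27 of 61 cases the region also lay inside or within 10 kb of another protein-coding gene, and at 12 genes this held for every region, so which gene such a region belongs to cannot be told from the lists.

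**Figure D3:**
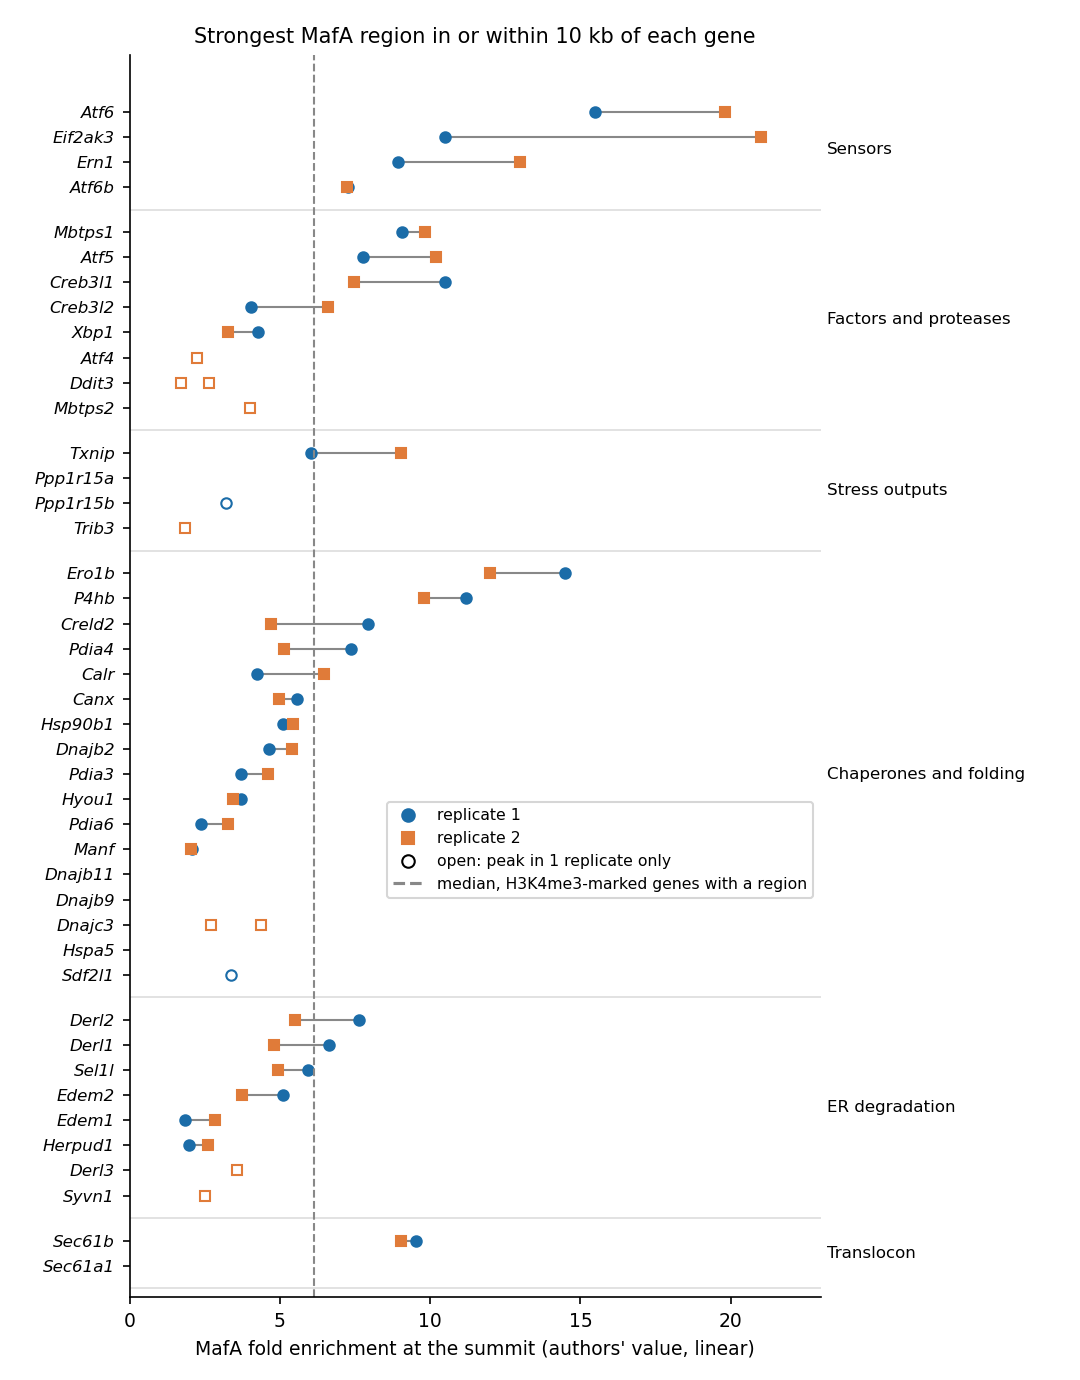
Fold enrichment of the strongest MafA region in or within 10 kb of each ER gene in replicate 1 (blue circles) and replicate 2 (orange squares), by role. Open symbols are peaks found in 1 replicate at genes without a shared region, blank rows have no peak, and the dashed line is the median of marked genes with a region (6.14). The highest values are at Atf6, Eif2ak3, Ero1b and Ern1, and Ppp1r15a, Hspa5, Dnajb9, Dnajb11 and Sec61a1 are blank.

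All 4 sensor genes had MafA regions, 17 in all, with the strongest ones inside the gene at 3 of them. By the same rule 61.6% of marked genes had a region, and 76.7% of marked genes 40 kb or longer. The sensor genes are long, with a median of 75.5 kb, and a difference from genes of like length was not tested. At Atf6, which encodes the sensor that is cut in the Golgi to release a transcription factor, replicates 1 and 2 gave 15.5 and 19.8 (chr1:170740031-170742427). This was the highest mean among the ER genes, 17.7 ± 2.98 (SD, n = 2), at percentile 96.6 of all 25894 MafA regions. It lay 126 kb into the gene from the end that carries H3K4me3, and that end itself had a MafA region with 7.38 and 9.24, which also lies near Dusp12. Atf6 had 3 more regions in its body.

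Eif2ak3, the gene of PERK, a kinase that phosphorylates eIF2α and slows translation, had its strongest region 36.0 kb into the gene (chr6:70880508-70881511). Fold enrichment there was 10.5 in replicate 1 and 21.0 in replicate 2, and the recovered fragments were 61 and 144. The replicates differed by more than 1.5 times, so its mean of 15.7 carries a wide error (SD 7.42, n = 2), yet both values were above the median of marked genes. Its start region was weak by fold enrichment, with 2.62 and 2.76 (percentile 2.22), though on 55 and 115 fragments.

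Ern1, the gene of the kinase and RNase IRE1, had its strongest region 16.0 kb into the gene (chr11:106470455-106471776), with 8.93 and 13.0. Another at 47.7 kb had 7.76 and 8.88. No shared region lay within 1 kb of its start, the nearest being at 2.49 kb with 4.37 and 4.88. Atf6b, a relative of Atf6 and the shortest sensor gene, had its strongest region outside the gene, at -5.36 kb from the start, with 7.26 and 7.22. That region is also within 10 kb of Ppt2, Prrt1 and Fkbpl. At the Atf6b start the values were 3.49 and 2.30.

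**Figure D4:**
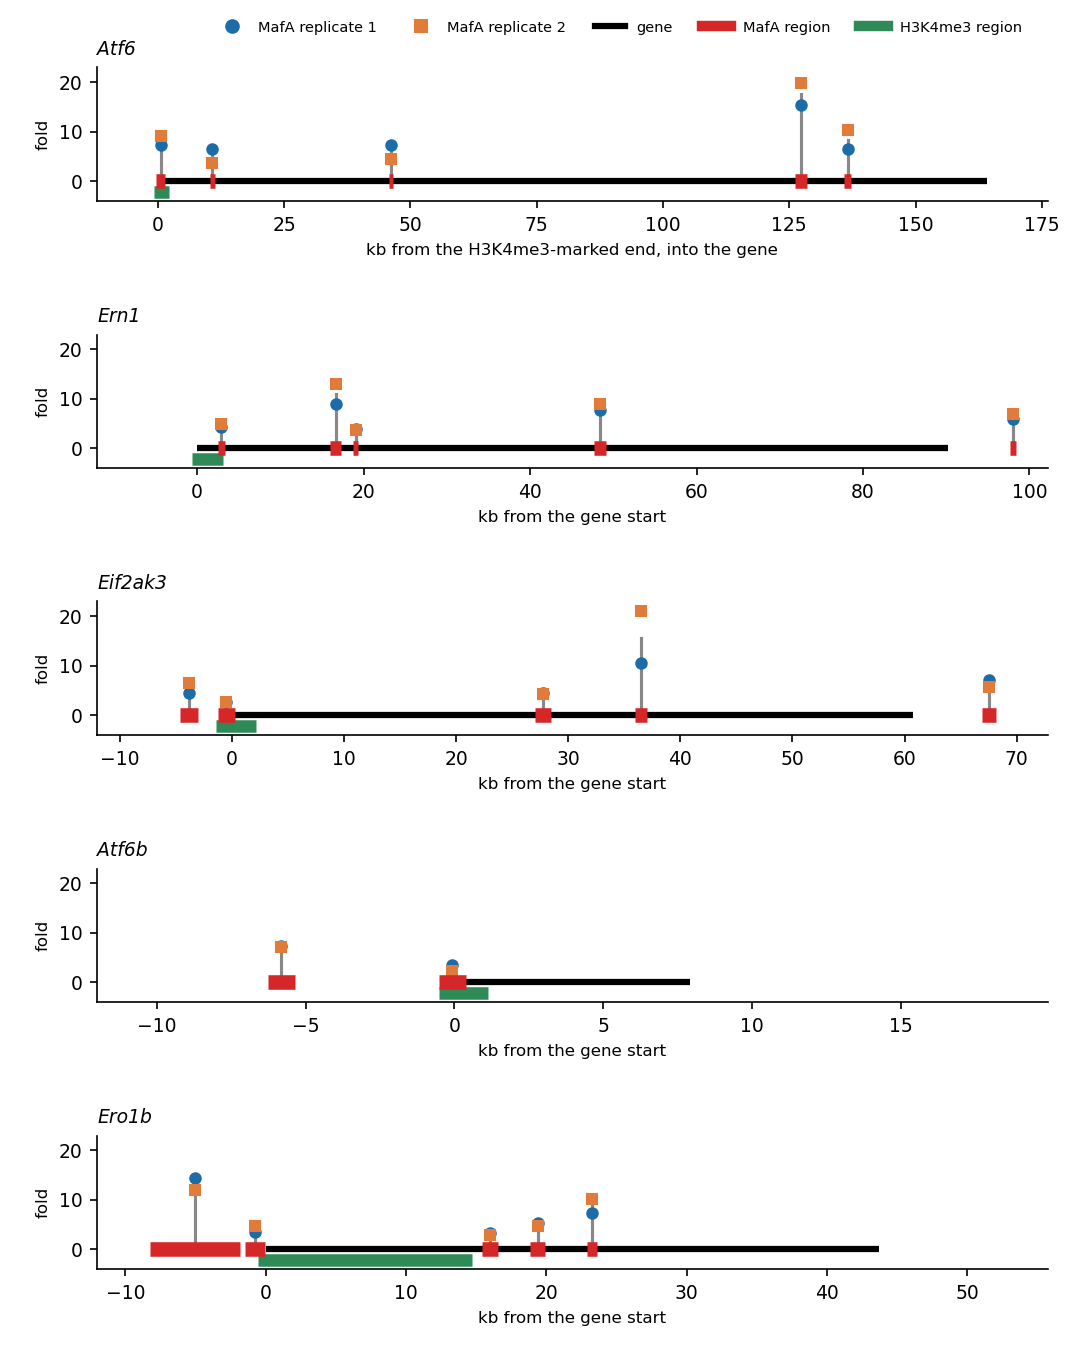
MafA regions (red, to scale) at the 4 sensor genes and Ero1b with fold enrichment in replicate 1 (circles) and replicate 2 (squares), the gene (black) and the H3K4me3 region at its start (green), by distance in kb from the gene start, or from the H3K4me3-marked end for Atf6. The tallest values of Atf6 and Eif2ak3 lie deep inside the gene and that of Ero1b upstream, away from the H3K4me3 at the start.

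Of the 8 transcription factors and their proteases, 5 had a MafA region (62.5%, against 61.6% of marked genes). At Atf5, a stress factor linked to beta cell survival, the region covered the start over H3K4me3 (chr7:44815570-44816617), with fold enrichment of 7.77 and 10.2 on 154 and 396 fragments. Its summits lay 6 bases apart, at 44816075 and 44816081. It is also near Nup62 and Il4i1b. Mbtps1, the gene of the site-1 protease that cuts ATF6, had 9.07 and 9.84 in a region 44.6 kb into the gene. Creb3l1, of a membrane-bound factor related to ATF6, had 10.5 and 7.46 in a region 6.72 kb inside the marked end. Creb3l2, its relative, had 4.03 and 6.59 at 42.2 kb and 5.40 and 2.88 beside the start, so its replicates did not rank these regions alike. Xbp1 had one weak region 1.17 kb after its start (4.27 and 3.29, percentile 13.6), within its H3K4me3 region and within 10 kb of Ccdc117. Replicate 2 alone had a peak at the Xbp1 start, with 3.16 on 164 fragments.

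Genes downstream of PERK came next. Atf4, the factor translated when eIF2α is phosphorylated, had no shared region and 1 peak, in replicate 2, with 2.25 at 8.90 kb after the start. Ddit3, the gene of CHOP, had 2 replicate 2 peaks, with 2.64 and 1.70 near the start. Trib3, a pseudokinase gene induced by CHOP, had 1 peak in replicate 2 with 1.85. Ppp1r15a, the gene of the stress-induced eIF2α phosphatase subunit GADD34, had no MafA peak in either list. Its constitutive relative Ppp1r15b had 1 in replicate 1 with 3.21. All 5 genes had H3K4me3 at the start, between 10.8 at Trib3 and 25.0 at Ppp1r15b (means of 2 replicates). Single peaks of this strength rest on 15 to 87 fragments.

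Txnip, a stress-induced inhibitor of thioredoxin, differed from those genes in having 3 regions. The highest mean fold enrichment lay at -2.02 kb from the start, with 6.02 and 9.03, and the start region had 6.89 and 6.33. The replicates did not rank these regions alike. Fragments were more at the start in both, 80 and 142 against 31 and 89. The third, 11.6 kb after the start, had 4.54 and 3.19 and is shared with Polr3gl. Mbtps2, the gene of the site-2 protease, had 1 peak in replicate 2 (3.99).

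Among the 17 chaperone and folding genes, 12 had a MafA region (70.6%, against 61.6% of marked genes). Ero1b was the strongest, with 14.5 in replicate 1 and 12.0 in replicate 2 (13.2 ± 1.83, SD, n = 2; percentile 92.5). This region, chr13:12557612-12564038, lay at -1.84 kb from the start and was 6.43 kb wide, rank 4 by width of 25894. Replicate 1 called it as 1 peak and replicate 2 as 2 peaks, and no other protein-coding gene lies within 10 kb. A second region just before the start had 3.47 and 4.74, and 3 regions lay in the gene beyond the broad H3K4me3, with 7.32 and 10.1 in the strongest. Replicate 2 alone had 4 peaks inside the H3K4me3 region, between 2.16 and 4.04.

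P4hb, encoding protein disulfide isomerase, came next with 11.2 and 9.80. That region (chr11:120555025-120556129) lay 17.1 kb after the start, beyond the gene, and is shared with Mcrip1 and Ppp1r27. The other isomerase genes had lower values. Pdia4 had 4 regions, of which the strongest, 7.59 kb after the start, had 7.36 and 5.13 and the start had 2.73 and 3.50. Pdia3 had 3.72 and 4.62 just before its start, and Pdia6 2.37 and 3.28 at 0.669 kb after it (percentile 3.08). Pdia3 and Pdia6 combined these weak MafA regions with H3K4me3 of 30.8 and 28.9 (means of 2 replicates).

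Calnexin and calreticulin, lectin chaperones of glycoproteins, and GRP94 (Hsp90b1) had middling values. Canx had 5.57 and 4.98 in a region at -0.185 kb from the start. Hsp90b1 had 5.11 and 5.43 across the start on 121 and 297 fragments, with summits at 86705930 and 86705888, outside the window printed above, and 4.35 and 4.55 at 2.38 kb. Calr had none at the start; its stronger region, 5.89 kb after the start, had 4.25 and 6.47. Its other region, upstream and near Farsa, had 1.92 and 2.20.

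Dnajb2, a co-chaperone gene, had 4.64 and 5.39 in a 3.01 kb region across its start, also within 10 kb of Ptprn and A630095N17Rik. Creld2 had no region at the start and 7.93 and 4.72 at 8.85 kb, beyond the gene and near Alg12. Hyou1 had 3.71 and 3.45 in a region outside the gene shared with Slc37a4, Trappc4 and Rps25. Manf, of a secreted survival factor, had the lowest of the strongest regions per gene, 2.09 and 2.03 (percentile 0.182), shared with Rbm15b and Dock3. Its start is not in the promoter table and H3K4me3 lay at both of its ends.

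Hspa5, the gene of BiP, the central ER chaperone and sensor regulator, had no MafA peak in either list in or within 10 kb of it. The same held for Dnajb9 and Dnajb11, which encode BiP co-chaperones, and, outside this group, for Ppp1r15a and Sec61a1. These 5 genes are 11.6% of the list, against 39.1% of all and 17.4% of marked genes. Their H3K4me3 ranged from 16.2 at Hspa5 to 29.2 at Sec61a1 (means of 2 replicates), so these starts carried the mark. Another 9 genes (20.9%) had peaks but no shared region, all in 1 list only. Of marked genes 21.0% had peaks but no shared region, a share that also counts genes with unmatched peaks in both lists. Dnajc3 and Sdf2l1, also BiP partners, had peaks in 1 replicate only: 2.71 and 4.36 at 2 places in replicate 2 for Dnajc3, and 3.36 in replicate 1 for Sdf2l1. A gene without a called peak is not shown to lack MafA, since a peak list holds no values below its threshold.

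Of 8 ERAD genes, 6 had a region (75.0%, against 61.6% of marked genes), all of moderate or low fold enrichment. By fold enrichment Derl2 was highest, with 7.64 and 5.50 in its body, a region shared with Mis12. Its other region, beyond the gene and shared with Dhx33, had 5.07 and 5.34. At the Derl2 start, peaks in replicate 2 alone had 3.72 on 165 fragments and 3.81 on 137. Derl1 had 6.63 and 4.79 in its body on 20 and 26 fragments, and 4.30 and 4.54 at its marked end on 127 and 266. By highest mean −log10 q, Derl1 (50.2) was above Derl2 (44.4). Sel1l, the adaptor of the HRD1 ligase, had 5.92 and 4.94 at 4.80 kb. Edem2 had 5.12 and 3.74 at 1.16 kb. Herpud1 and Edem1 had weak start regions, with 1.99 and 2.61 at Herpud1 and 1.85 and 2.84 at Edem1, the latter also near Arl8b. In the Herpud1 window the summits fell at bases 16 and 14, and its ER stress element is at bases 199 to 209. Syvn1, the gene of HRD1 itself, and Derl3 each had 1 peak at the start in replicate 2 alone (2.51 and 3.56).

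The translocon genes differed from each other. Sec61b had a region across its start (chr4:47473982-47475401) with 9.53 and 9.04, on 210 and 396 fragments. Its summit was at 47474493 in both replicates, in the 21 bases shown in capitals above. By −log10 q, with a mean of 147 over the replicates, this was the strongest region of all the ER genes. It is also near Alg2. Sec61a1, the gene of the pore subunit, had no MafA peak.

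Position and strength were then compared across the 61 regions. At the start lay 18 (29.5%), in the gene body 24 (39.3%), upstream 5 (8.20%) and downstream 12 (19.7%), while 2 lay outside a gene of unstated direction. Over all genes the shares were 20.7% at the start and 54.4% in the body. These are shares of 21992 pairs of a region and a gene, so a region near several genes counts for each. H3K4me3 regions overlapped 34 of the 61 (55.7%), against 36.4% over all genes, and included all 18 at starts and 16 of 43 elsewhere. Every ER gene carries H3K4me3 at the start, whereas the background over all genes includes genes without it. Shares over marked genes alone are not given for position. Start regions had a median fold enrichment of 4.01 in replicate 1 and 4.58 in replicate 2, against 5.92 and 5.13 elsewhere. Fragments at the summit ran the other way, with medians of 64.5 and 146 at starts and 32 and 66 elsewhere. The same order was seen over all genes, with 4.13 at starts and 5.75 elsewhere (medians of replicate means) and 57 and 129 against 29 and 61 fragments. Which regions rank as strong therefore depends on the measure, here as in the whole series.

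**Figure D5:**
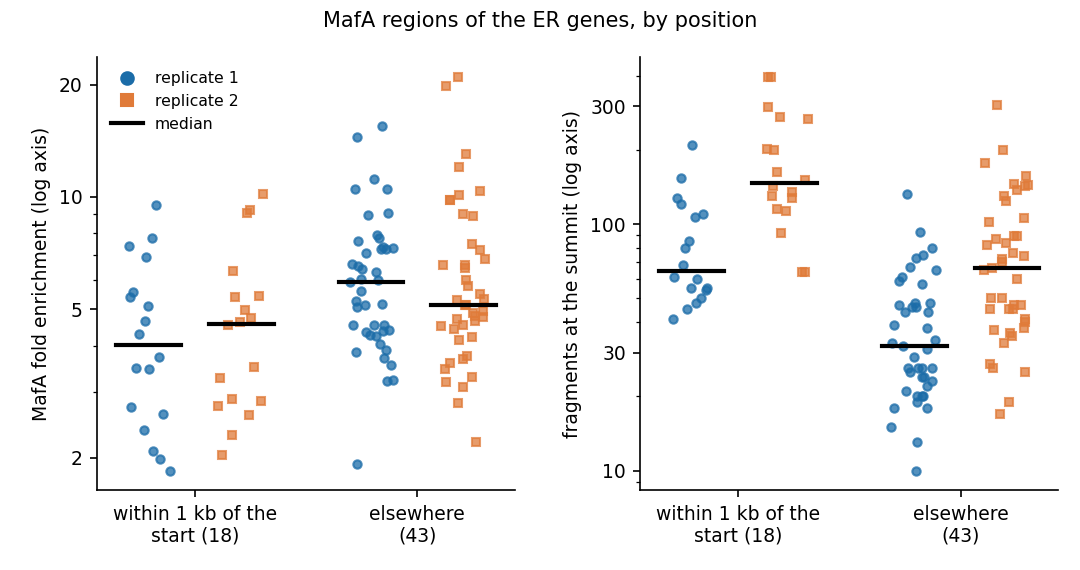
Fold enrichment (left) and recovered fragments at the summit (right) of the 61 MafA regions at the ER genes, on log axes, by position and replicate, with medians as black lines. Start regions have lower median fold enrichment (4.01 and 4.58 against 5.92 and 5.13) and more fragments (64.5 and 146 against 32 and 66). For genes without a table entry either gene end counts as the start.

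A region was kept only where peaks of both replicates overlapped, so some nearness of their summits is built in. Summits lay within 100 bp of each other in 44 of 61. Replicate 2 had the higher fold enrichment in 32 of 61, and in 10 of 61 the replicates differed by more than 1.5 times. Unmatched peaks at the ER genes numbered 14 in replicate 1 and 38 in replicate 2. MafA peaks at these genes had a median width of 586 ± 78.8 bp, whereas H3K4me3 peaks reached 2450 ± 11.3 bp (SD over 2 libraries of each antibody). The difference of -1864 bp was larger than the spread between replicates, with an exact permutation p of 0.333 (two-sided), the smallest that 2 libraries against 2 allow. The labels do not say that replicates were separate cultures, so the spread may be technical.

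A wider list of 112 other genes of the same pathways was described for context. A MafA region lay at 69 of them (61.6%), against the 44.0% of all genes given above. H3K4me3 was at the start of 109, of which 68 had a MafA region (62.4%), near the 61.6% of all marked genes. By group, 18 of 26 genes of the integrated stress response had a region, 11 of 17 other signalling genes, 11 of 21 folding genes, 11 of 20 ERAD genes and 18 of 28 genes of translocation and glycosylation. The 5 with the highest fold enrichment had it inside the gene, away from H3K4me3. These were Eif2ak4 (19.1 and 22.0), the gene of the amino acid sensor kinase GCN2, Erp44 (16.5 and 20.9), of a thioredoxin-like folding factor, Nploc4 (13.6 and 22.7), of a partner of the p97 ATPase in ERAD, Map3k5 (15.8 and 17.8), of the kinase ASK1 downstream of IRE1, and Sil1 (14.2 and 17.0), of a nucleotide exchange factor for BiP. The 3 without H3K4me3 at the start were Fgf21, Creb3l4 and Pdia2, and of these only Fgf21 had a MafA region.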

How the data were processed

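Peak lists of the 2 MafA and 2 H3K4me3 libraries, 1 list per library, were analysed. MACS2 and GRCm38 (mm10) are named in the submitters' processing notes. The MACS2 version and threshold, aligner, duplicate handling and control library are not given in the sources used here. Reads were 150 bp pairs, per the labels. Fold enrichment, as the authors deposited it, is a linear ratio for the summit. The −log10 p and −log10 q in the deposited lists belong to the same summit. The deposited integer score was not used. Positions are 1-based.

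A region is the union of peaks of both replicates that overlap by at least 1 bp, valued in each replicate by its strongest peak. A gene has a region if one lies in its body or within 10 kb. Gene positions were taken from RefSeq (GRCm38.p6), and starts and strands from the promoter table of that build. For 7 of the 43 genes it has no start, and either end was used. Exons and introns, and sequence under summits outside the promoter windows, were not analysed here. Overlapping windows on opposite strands were reverse complements in 1627 of 1627 cases.

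Fragments at MafA summits were recovered from fold enrichment and −log10 p, taking fold enrichment as pileup plus 1 over background plus 1. Whole fragments resulted for 100% of 552 and 722 sampled peaks, with scaling factors of 1.0 and 0.746 for replicates 1 and 2. The factors were chosen on these same peaks as those that came closest to whole numbers, so the 100% is not an independent check. Recovery, region building and gene assignment were tested on simulated data. The work used matplotlib 3.10.9, scipy 1.17.1, pandas 2.3.3, numpy 2.4.6 and Python 3.11.15.

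The genes and lists were chosen with earlier results of these data known. All 43 genes are named, and of the wider list the 5 with the highest mean fold enrichment and those without H3K4me3 at the start. No set was tested. Peak threshold, list length, overlap, windows, assignment, measure of strength and replicates were varied.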

Additional observations from a re-analysis of the deposited data

How the results depend on the processing

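H3K4me3 was found at the start of all 43 genes under 7 alternatives and of 42 when either end of the gene in the gene table was used. The count of 29 genes with a MafA region stayed between 22 (50% reciprocal overlap) and 39 (50 kb either side) except for the 16020 strongest peaks of each library, which left 11, as fewer peaks entered; the share of marked genes was then 31.7%, against 25.6% of the ER genes. That setting also left 19 of the 61 regions, 4 of the 18 genes with a start region and 25 of the 69 wider-list genes. The 61 regions became 38 in gene bodies alone, 120 within 50 kb and 38 within 10 kb of the start. Leaving out a MafA replicate gave 31 to 36 genes, 77 to 100 regions (100 without replicate 1), 20 to 25 genes with a start region and 77 to 85 wider-list genes. Assigning each region to the nearest gene alone left 26 genes, with Calr, Hyou1 and Pdia3 lost.

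In 29 of 87 cases under a stricter threshold, fewer peaks or stricter overlap a gene lost its region. Edem1, Edem2 and Manf lost it under all 3. None of the 58 remaining values moved beyond the spread between replicates. These settings drop or unmatch peaks without recomputing fold enrichment. A value could therefore change only where its strongest peak was dropped or unmatched, and its stability is no separate check. Without MafA replicate 2, an unmatched peak raised Manf to 3.32 and Edem1 to 4.42. Of the 10 genes with the highest fold enrichment, 6 were among the top 10 by −log10 q and 4 by fragments. The settings for the width difference, and for the median over genes of 5.71, were chosen after seeing the data. The median was 5.50 to 6.63 when a MafA replicate was left out, 6.90 with 50% reciprocal overlap, 6.32 with the −log10 q threshold of 5 and 9.45 for the strongest peaks. Under these 3 fewer genes have a value. The width difference ranged from -1920 to -1583 bp. With the replicate number as a block it was -1864 bp (exact permutation p = 0.5), and nothing in the labels ties equal numbers together. Depth is known only as fragments at summits, and a gene without a peak has no value.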
